A study of Mus musculus with 16 samples.

Results

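The 9 genes described here encode ligands of the tumour necrosis factor (TNF) superfamily that CD4+ T cells are known to use: Tnf, Lta, Ltb, Cd40lg, Fasl, Tnfsf8, Tnfsf10, Tnfsf11 and Tnfsf14. They were taken by symbol from a fixed list, which was chosen with earlier results of these data known. All 9 were present among the 31053 genes of the lung and MLN tables and the 32285 genes of the node tables. The cells came from 4get/C57BL/6 IL-4eGFP reporter mice, in which green fluorescence marks cells that transcribe or have been licensed for Il4, at day 10 after infection with 500 larvae of the lung- and gut-dwelling nematode Nippostrongylus brasiliensis. In the first run, CD4+IL-4eGFP+ cells were sorted from lung and mesenteric lymph node (MLN) of 2 mice aged 13 weeks, giving 4 libraries with paired T-cell receptor (TCR) sequences. In the second run, mediastinal lymph node (medLN) and MLN of 2 other mice aged 10 weeks were hashtagged, and CD4+ cells were sorted as IL-4eGFP+ or IL-4eGFP-, with all hashtagged cells of 1 sort loaded as 1 library. All mice were infected, so no uninfected level is known here, and in the second run the IL-4eGFP gate and the library cannot be told apart. Lungs were perfused and digested with enzymes before the sort and lymph nodes were only mashed, so organ and preparation cannot be told apart in the first run.

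Most ligands of this superfamily are made as type II membrane proteins that assemble as trimers and cluster their receptors, and several can also be shed in soluble form. In T helper cells they carry messages to neighbours. CD40 ligand licenses B cells and dendritic cells, lymphotoxins maintain lymphoid tissue structure, RANKL and LIGHT act on myeloid and stromal cells, and Fas ligand and TRAIL can trigger death of the receptor-bearing cell.

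The protein names used in the field differ from the gene symbols. Cd40lg encodes CD40 ligand, Fasl encodes Fas ligand, Tnfsf8 encodes CD30 ligand, Tnfsf10 encodes TRAIL, Tnfsf11 encodes RANKL, Tnfsf14 encodes LIGHT, and Lta and Ltb encode lymphotoxin alpha and beta. On GRCm38, Ltb (chr17:35194439-35196320, plus strand), Tnf (chr17:35199381-35202007, minus strand) and Lta (chr17:35203165-35205351, minus strand) lay side by side. The start of Tnf was 3344 bases from that of Lta and 7568 bases from that of Ltb. Tnfsf14 (chr17:57189492-57194177, minus strand) was on the same chromosome but 21992170 bases away. The other members were spread over the genome, with Cd40lg at chrX:57212143-57224042 (plus), Fasl at chr1:161780689-161788495 (minus), Tnfsf8 at chr4:63831308-63861347 (minus), Tnfsf10 at chr3:27317028-27342427 (plus) and Tnfsf11 at chr14:78277445-78308043 (minus).

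The promoter windows of Tnf, Fasl and Tnfsf14 are shown because these members rose most in early-response cells of the nodes, in both sorts (described below). Each is the 250 bases before the RefSeq start site on GRCm38.p6, written 5′ to 3′ on the strand of the gene. Capitals mark GGAAA, the core that NFAT factors bind, or its complement TTTCC. The windows are chr17:35202008-35202257 (minus strand) for Tnf, chr1:161788496-161788745 (minus) for Fasl and chr17:57194182-57194431 (minus) for Tnfsf14.
Tnf: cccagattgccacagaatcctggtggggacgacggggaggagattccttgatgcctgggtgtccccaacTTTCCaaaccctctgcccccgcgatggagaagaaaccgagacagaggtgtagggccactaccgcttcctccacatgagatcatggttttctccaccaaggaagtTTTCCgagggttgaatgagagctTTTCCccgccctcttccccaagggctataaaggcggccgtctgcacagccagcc
Fasl: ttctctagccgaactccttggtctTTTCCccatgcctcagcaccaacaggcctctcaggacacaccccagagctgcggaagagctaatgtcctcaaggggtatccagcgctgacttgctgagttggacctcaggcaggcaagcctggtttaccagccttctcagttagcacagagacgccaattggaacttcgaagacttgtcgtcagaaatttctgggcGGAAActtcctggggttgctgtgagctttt
Tnfsf14: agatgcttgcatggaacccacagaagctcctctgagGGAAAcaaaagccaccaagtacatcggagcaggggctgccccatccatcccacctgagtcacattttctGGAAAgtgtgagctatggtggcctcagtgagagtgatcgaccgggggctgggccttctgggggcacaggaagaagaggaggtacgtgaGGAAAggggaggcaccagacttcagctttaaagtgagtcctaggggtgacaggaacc
Tnf and Tnfsf14 each held 3 matches to GGAAA on either strand, Fasl and Lta each held 2, and Ltb, Tnfsf8, Tnfsf10 and Tnfsf11 each held 1. The motif is short, and 55.6% of all 32851 promoter windows held at least 1 match. An AP-1 sequence (TGANTCA, in 6.75% of all windows) was found only in the window of Tnfsf14 among the 8 members searched. A kappa B sequence (GGG, then any 2 letters, then TTTCC, in 1.41% of all windows and overlapping the GGAAA match) was found only in that of Ltb. No member held the cAMP response element TGACGTCA (1.55% of all windows) or the Egr sequence GCGNGGGCG (4.70%), and no window was searched for Cd40lg. These matches describe letters in the window and not binding.

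After the study's filters, 1082 and 416 lung cells and 2462 and 754 MLN cells with both TCR chains were kept in the first run, and 8074 IL-4eGFP+ and 8674 IL-4eGFP- cells in the second. Samples held 2798232 to 14512767 unique molecular identifiers (UMIs, 1 per captured transcript), with medians of 4971 to 6910 per cell in the first run and 3166 to 3666 in the second. Cd3e stood at 954 to 1272 UMIs per 1000000 (CPM) in all 12 samples. Il4 was at 153 to 187 CPM in IL-4eGFP+ node samples and at 0 to 0.398 CPM in IL-4eGFP- samples, matching the sort. B-cell markers (5 genes) summed to 0.357 to 3.57 CPM in the first run and to 18.7 to 44.5 CPM in the nodes. The digested lung stood apart in 5 early-response genes that T cells switch on within minutes to hours of stimulation or handling (Nr4a1, Nr4a3, Egr1, Egr2 and Egr3). Cells with UMIs of at least 2 of these genes, called early-response cells below, were 66.0% and 48.3% of lung cells, 7.47% and 10.3% of MLN cells, 6.38 to 8.07% of IL-4eGFP+ node cells and 3.78 to 4.59% of IL-4eGFP- node cells.

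The first comparison asked which ligands differ between IL-4eGFP+ cells of the lung and of the MLN of the same mice. Lung cells held more RNA for the death ligands Fasl and Tnfsf10 and for Cd40lg, Tnfsf8 and Tnfsf11, and less for Ltb and Tnfsf14. UMI counts were summed per sample and tested with edgeR's quasi-likelihood method, with p-values adjusted over all 10587 genes by the Benjamini-Hochberg method and called at 0.05. By this test 7 of the 9 members were called, 5 higher and 2 lower in lung. Of all genes tested 31.0% were called, and the median log2 fold change was 0.97 over the members and -0.01 over all genes.

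Fasl differed most among the members. It stood at 50.7 and 64.7 CPM in the lung samples and at 10.5 and 9.83 CPM in the MLN samples. The edgeR estimate was 6.02-fold higher in lung (log2 2.59 ± 0.15 SE, n = 2 mice per organ, edgeR adjusted p = 2.6e-06). Fasl UMIs were found in 28.1% and 27.4% of lung cells against 3.90% and 3.71% of MLN cells. After every cell was thinned to 2000 UMIs these shares were 10.5% and 13.2% against 1.74% and 1.21%, so the organs did not overlap at equal depth. Tnfsf10, which encodes the death ligand TRAIL, stood at 28.8 and 34.3 CPM in lung and 12.9 and 12.3 CPM in MLN (1.43 ± 0.15, adjusted p = 1.1e-04). Both lung samples lay above both MLN samples for both genes.

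Cd40lg, whose product is the main T-cell signal to B cells, stood at 587 and 621 CPM in lung against 234 and 284 CPM in MLN (1.35 ± 0.13, edgeR adjusted p = 6.1e-05). It was then the most abundant member in lung, ahead of Ltb, whereas Ltb led in MLN. One UMI stands for 1 captured 5′ end in this assay, so no scaling by transcript length was made for such comparisons. Tnfsf8 stood at 213 and 175 CPM in lung and 92.0 and 104 CPM in MLN (1.14 ± 0.15, adjusted p = 4.9e-04). Its share of positive cells was 29.4% and 24.3% in lung and 27.2% and 29.6% in MLN, so the organs overlapped, but in thinned cells it was 18.7% and 16.7% against 14.4% and 15.9%. The highest count in 1 cell was 47 and 28 UMIs in the lung samples and 18 and 14 in the MLN samples. Tnfsf11, a ligand for RANK on dendritic cells and osteoclast precursors, stood at 208 and 234 CPM in lung and 126 and 119 CPM in MLN (0.97 ± 0.11, adjusted p = 1.6e-04).

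The lymphotoxin genes and Tnfsf14 pointed the other way. Ltb, the membrane anchor of the lymphotoxin heterotrimer, stood at 491 and 561 CPM in lung and 852 and 914 CPM in MLN (-0.62 ± 0.12, edgeR adjusted p = 0.00373), and without the second MLN library the value was -0.59 and no longer passed (adjusted p = 0.0666). Tnfsf14 stood at 16.6 and 21.1 CPM in lung and 36.5 and 37.1 CPM in MLN (-0.87 ± 0.14, adjusted p = 0.00167). The organs did not overlap for either gene. Lta, the soluble partner, had 13.5 and 10.7 CPM in lung and 19.8 and 20.1 CPM in MLN and did not pass (-0.51 ± 0.19, adjusted p = 0.0691), but passed with the mouse as a block (-0.52, adjusted p = 0.0391) and without the first lung library (-0.84, adjusted p = 0.0217). Tnf itself had 18.8 and 19.3 CPM in lung and 22.5 and 33.1 CPM in MLN (-0.35 ± 0.20, adjusted p = 0.205).

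**Figure D1:**
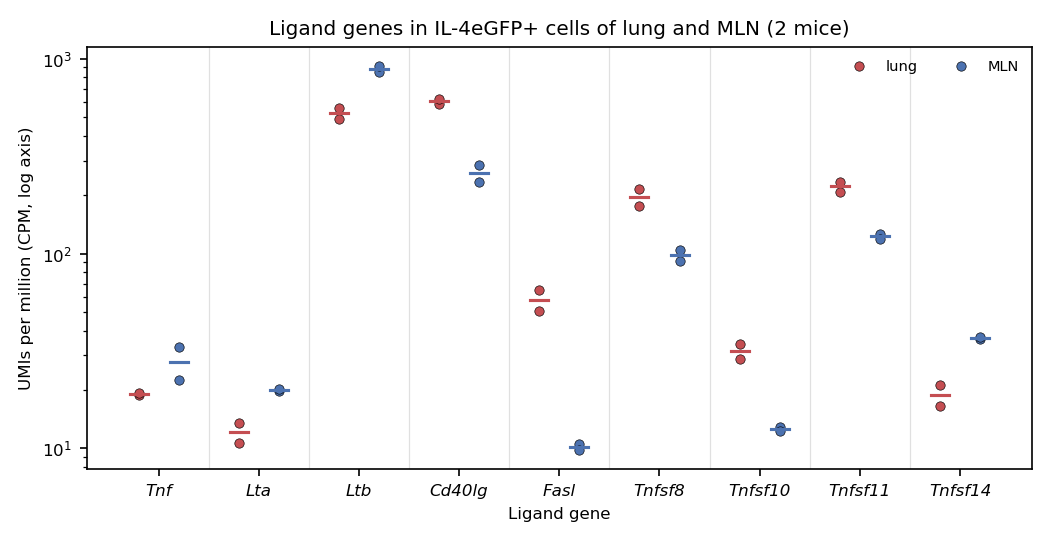
CPM (log axis) of each ligand gene in the 4 samples of the first run; points are the 2 mice and bars the mean of each organ. Fasl, Tnfsf10, Cd40lg, Tnfsf8 and Tnfsf11 lie higher in both lung samples and Ltb and Tnfsf14 higher in both MLN samples.

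Genes known to respond to tissue dissociation moved with the organ. Of a list of 13, 12 were higher in lung and none lower, among 31.0% of all genes called. Their median log2 fold change was 3.22 over the list (Atf3 8.09, Nr4a1 4.96, Dusp1 4.78). With early-response cells left out of all samples, the same 7 members passed. The values were then 2.95 for Fasl, 1.63 for Tnfsf10, 1.13 for Cd40lg, 0.94 for Tnfsf8, 0.76 for Tnfsf11, -0.64 for Ltb and -0.60 for Tnfsf14. The part of the dissociation genes outside this gate was not tested. The summed level of 6 myeloid markers was 129 and 123 CPM in lung and 117 and 132 CPM in MLN, of which Cst3 made up 129 and 123 CPM in lung. Lyz2, a defining marker of these cells, was at 0 in both lung samples.

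The second run asked whether cells of the lung-draining medLN differ from cells of the gut-draining MLN. No member passed in either sort, where 1.38% of genes were called in IL-4eGFP+ cells and 0.0434% in IL-4eGFP- cells (edgeR quasi-likelihood, 11534 genes). DESeq2 also called none, and 2 members in each sort had an unadjusted edgeR p under 0.05. Of all 11534 genes, 1424 in IL-4eGFP+ cells and 718 in IL-4eGFP- cells had such a p. Tnf was 1 of the 2 members in both sorts. It stood at 23.7 and 27.0 CPM in medLN and 20.6 and 16.9 CPM in MLN for IL-4eGFP+ cells, and at 21.5 and 24.6 against 16.7 and 15.3 CPM for IL-4eGFP- cells. Both medLN samples lay above both MLN samples in each sort, at log2 differences of 0.43 ± 0.12 (edgeR adjusted p = 0.136) and 0.47 ± 0.13 (adjusted p = 0.507). The others were Tnfsf8 in IL-4eGFP+ cells (0.20 ± 0.09, adjusted p = 0.386) and Cd40lg in IL-4eGFP- cells (-0.28 ± 0.08, adjusted p = 0.555).

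In IL-4eGFP+ cells the organ difference plus or minus 1.96 SE ran from -0.26 to 0.02 for Cd40lg, from -0.24 to 0.07 for Ltb and from -0.09 to 0.34 for Tnfsf11. For Fasl, with 54 to 80 UMIs per sample, it ran from -0.34 to 0.48. No member differed in its organ effect between the sorts by the interaction test either, in which 0.156% of genes were called. DESeq2 called no member. An unadjusted edgeR p under 0.05 was found for 1 member, Tnfsf14 (-0.77 ± 0.33, edgeR adjusted p = 0.688), and for 807 of all 11534 genes.

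The sorts themselves differed in 7 of 9 members, 5 higher and 2 lower in IL-4eGFP+ cells, among 62.1% of all genes called. Among the members, Tnfsf11 and Tnfsf14 set the sorts apart most. Tnfsf11 stood at 94.0, 114, 103 and 87.4 CPM in the 4 IL-4eGFP+ samples (medLN 1 and 2, then MLN 1 and 2) and at 10.7, 14.2, 10.4 and 8.75 CPM in the IL-4eGFP- samples. The edgeR estimate was 7.97-fold higher in IL-4eGFP+ cells (log2 2.99 ± 0.10, edgeR adjusted p = 1.5e-09). The 4 samples of each sort came from 2 mice and 1 library, with medLN and MLN of a mouse counted as separate samples. Tnfsf14 stood at 20, 22.4, 24.8 and 24.9 CPM against 2.97, 3.45, 2.85 and 1.40 CPM (7.68-fold, log2 2.94 ± 0.14, adjusted p = 2.3e-08). No IL-4eGFP- sample reached the lowest IL-4eGFP+ sample for either gene. The sorts also differed in cell state. Naive markers (4 genes) summed to 1579 to 1735 CPM in IL-4eGFP- samples and 753 to 916 CPM in IL-4eGFP+ samples. Cycling markers (4 genes) summed to 73.6 to 149 CPM and 677 to 868 CPM. The part of cell state in the differences between the sorts was not tested, nor its part in the Foxp3 gate described below.

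Shares of positive cells gave the same order. Tnfsf11 UMIs were found in 28.0 to 32.0% of IL-4eGFP+ cells and 2.58 to 3.87% of IL-4eGFP- cells, and Tnfsf14 UMIs in 7.19 to 10.2% and 0.508 to 1.05%. In thinned cells the shares were 16.8 to 21.6% against 1.47 to 2.21% and 4.07 to 6.12% against 0.152 to 0.710%. Free RNA can add UMIs to such shares, and its part was not tested.

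Cd40lg stood at 112, 118, 129 and 120 CPM in IL-4eGFP+ samples and 53.4, 53.9, 68.4 and 57.2 CPM in IL-4eGFP- samples (0.86 ± 0.05, edgeR adjusted p = 1.7e-07). Tnfsf8 stood at 111, 116, 90.4 and 106 against 59.1, 56.2, 55.5 and 61.9 CPM (0.67 ± 0.07, adjusted p = 5.6e-06). For both genes every IL-4eGFP+ sample lay above every IL-4eGFP- sample. Tnfsf10 had 18.1 to 22.7 CPM against 12.8 to 15.3 CPM (0.33 ± 0.10, adjusted p = 0.0115). This call was lost without MLN 2 of the IL-4eGFP+ sort (0.23) and without MLN 1 of the IL-4eGFP- sort (0.28). It was also lost with DESeq2 (0.34), in thinned cells (0.24) and without cells that carried markers of other cell types (0.08). Those were cells with 2 or more UMIs of such markers, 2108 of 16748 node cells, and the markers included Cst3.

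Both lymphotoxin genes were lower in IL-4eGFP+ cells. Ltb, the most abundant member in every node sample, stood at 681, 682, 805 and 640 CPM against 937, 873, 879 and 850 CPM (-0.52 ± 0.06, edgeR adjusted p = 1.0e-05), with no overlap. Lta stood at 14.4, 15.7, 11.6 and 13.9 CPM against 21.5, 19.2, 23.7 and 13.8 CPM (-0.68 ± 0.14, adjusted p = 0.00176), and here 1 IL-4eGFP- sample, MLN 2, fell within the IL-4eGFP+ range. Tnf (16.9 to 27.0 against 15.3 to 24.6 CPM) and Fasl (5.87 to 7.99 against 5.17 to 6.47 CPM) overlapped between the sorts and did not pass, at -0.01 ± 0.09 and 0.09 ± 0.16. Over the alternatives Fasl ran from -0.02 to 0.32 and never passed. Tnf turned to 0.33 (adjusted p = 0.0239) in thinned cells and 0.29 (adjusted p = 0.0199) without cells that carried other-cell markers.

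**Figure D2:**
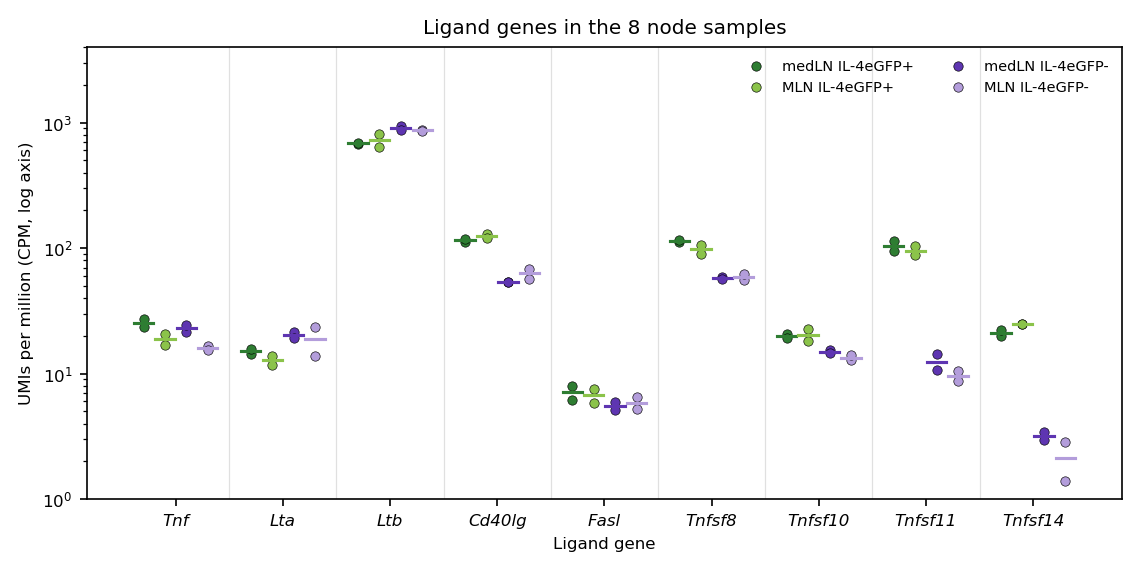
CPM (log axis) of each ligand gene in the 8 hashtagged node samples; points are the 2 mice and bars the mean of each organ and sort. Tnfsf11 and Tnfsf14 show the widest gap between IL-4eGFP+ and IL-4eGFP- samples, and medLN and MLN lie close together within each sort.

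Early-response cells were then set against all other cells of the same sample, with the sample as a block, to see which ligands accompany these genes. Among IL-4eGFP+ node cells 7 of 9 members rose in early-response cells and none fell (8.21% of genes called). Among IL-4eGFP- node cells 6 of 9 rose and none fell (11.4% of genes called). In lung and MLN together 4 of 9 rose and none fell (1.15% of genes called). The median log2 fold change of the members was 1.47, 1.05 and 0.73, against -0.02, -0.03 and 0.01 over all genes. The gate genes and the members do not overlap.

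Tnf had the largest change in IL-4eGFP+ nodes. Early-response cells of medLN 1 and 2 and MLN 1 and 2 held 135, 143, 116 and 104 CPM, and the other cells of those samples 12.2, 16.1, 13.8 and 9.12 CPM (3.33 ± 0.14, edgeR adjusted p = 1.4e-19). In IL-4eGFP- nodes the values were 93.7, 187, 109 and 111 CPM against 17.6, 16.0, 11.9 and 11.1 CPM (3.04 ± 0.18, adjusted p = 8.3e-22). Early-response and other cells did not overlap across the samples of either sort. Early-response cells, which held 6.64 to 9.34% of all UMIs in IL-4eGFP+ samples, held 37.4 to 53.3% of the Tnf UMIs there, and in IL-4eGFP- samples 22.3 to 38.2% of the Tnf UMIs against 4.22 to 5.11% of all UMIs.

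Tnfsf14 and Fasl also rose in early-response cells of both sorts. Tnfsf14 stood at 57.4, 66.4, 94.9 and 90.3 CPM against 16.1, 18.3, 19.8 and 19.1 CPM in IL-4eGFP+ nodes (2.09 ± 0.14, edgeR adjusted p = 2.4e-13). In IL-4eGFP- nodes it had 12.7, 29.0, 37.3 and 6.01 CPM against 2.45, 2.09, 1.04 and 1.19 CPM (3.50 ± 0.52, adjusted p = 3.5e-07), from only 2 to 7 positive early-response cells per sample. Fasl stood at 30.4, 28.3, 16.4 and 24.0 CPM against 5.68, 4.15, 5.12 and 6.04 CPM in IL-4eGFP+ nodes (2.27 ± 0.25, adjusted p = 1.7e-08). In IL-4eGFP- nodes it had 40.5, 18.5, 37.3 and 36.1 CPM against 3.27, 5.30, 3.52 and 5.16 CPM (2.85 ± 0.36, adjusted p = 5.3e-09). All 8 node samples had higher levels of both genes in early-response cells.

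Cd40lg rose in early-response cells of both sorts. It had 217, 261, 277 and 248 CPM against 101, 105, 119 and 108 CPM in IL-4eGFP+ nodes (1.24 ± 0.08, edgeR adjusted p = 2.7e-14) and 83.5, 108, 187 and 111 CPM against 51.8, 51.1, 62.2 and 54.8 CPM in IL-4eGFP- nodes (1.05 ± 0.14, adjusted p = 2.5e-08). A difference between the rises did not pass the interaction test introduced next (0.19 ± 0.15, 1.96 SE from -0.11 to 0.49, edgeR adjusted p = 0.729).

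Other members differed between the sorts. The interaction of the early-response gate with the sort, chosen after the values were seen, was called for 3 of 9 members and 2.79% of genes. Tnfsf8 had 225, 357, 234 and 262 CPM in early-response cells against 99.1, 94.0, 80.2 and 92.0 CPM in other cells of IL-4eGFP+ nodes (1.58 ± 0.09, edgeR adjusted p = 2.8e-15). In IL-4eGFP- nodes it had 70.9, 44.9, 89.5 and 102 CPM against 58.5, 56.8, 53.7 and 60.1 CPM (0.32 ± 0.16, adjusted p = 0.234; 0.50, adjusted p = 0.044, without medLN 2). The interaction was 1.26 ± 0.18 (adjusted p = 4.2e-06). Early-response cells of medLN 2 lay below the other cells in the IL-4eGFP- sort and far above them in the IL-4eGFP+ sort.

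Tnfsf11 had the opposite interaction (-1.13 ± 0.26, edgeR adjusted p = 0.00455). It rose from 82.3 to 110 CPM to 134 to 169 CPM in IL-4eGFP+ nodes (0.68 ± 0.09) and from 7.28 to 13.3 CPM to 27.8 to 44.8 CPM in IL-4eGFP- nodes (1.82 ± 0.28). Its level in IL-4eGFP- early-response cells stayed below that of all IL-4eGFP+ cells. The Tnfsf14 interaction was -1.46 ± 0.41 (adjusted p = 0.0336). The Tnfsf11 call was lost without MLN 1 (-0.97, adjusted p = 0.0926) or MLN 2 (-0.97, adjusted p = 0.0624) of the IL-4eGFP- sort. The Tnfsf14 call was lost without medLN 1 of the IL-4eGFP+ sort (-1.39) or without medLN 2 (-1.40) or MLN 1 (-0.87) of the IL-4eGFP- sort. Both calls were also lost with at least 3 early-response genes (Tnfsf11 -0.94, Tnfsf14 -1.27), and that of Tnfsf14 in thinned cells (-1.15).

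Lta rose in IL-4eGFP+ nodes, from 10.7 to 14.7 CPM to 24.6 to 43.9 CPM (1.47 ± 0.20, edgeR adjusted p = 1.3e-06). In IL-4eGFP- nodes its value was 0.79 ± 0.24 (adjusted p = 0.0187), and the call was lost in 8 of 12 alternatives. Among these were DESeq2 (0.82), thinned cells (0.74) and leaving out medLN 1 (0.57), medLN 2 (0.79) or MLN 2 (0.81). Ltb, its partner, gave 0.14 ± 0.05 and 0.14 ± 0.06 and did not pass (adjusted p = 0.131 and 0.145; without medLN 1 of the IL-4eGFP- sort 0.21, adjusted p = 0.015). Tnfsf10 was the 1 member with negative values in all comparisons of this kind, -0.33 ± 0.21 and -0.20 ± 0.35 in the nodes and -0.36 ± 0.15 in lung and MLN, and it passed in none of them.

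**Figure D3:**
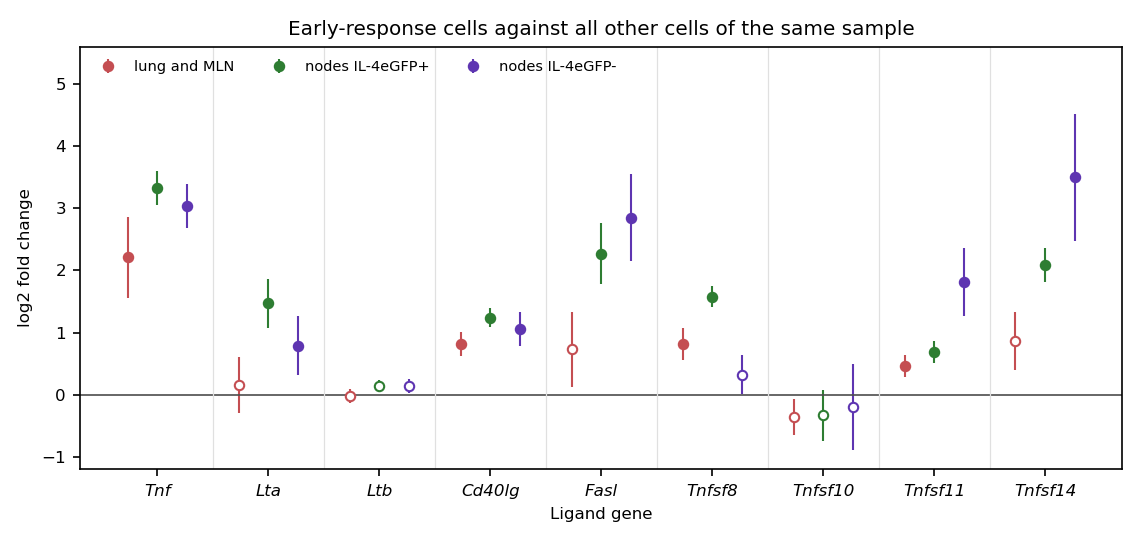
Log2 fold change of each ligand gene in early-response cells against the other cells of the same sample, for the 4 lung and MLN samples and the 4 node samples of each sort. Lines span 1.96 SE either way, and filled points passed an adjusted p of 0.05. Tnf rose in all 3 settings, whereas Ltb and Tnfsf10 passed in none.

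**Figure D4:**
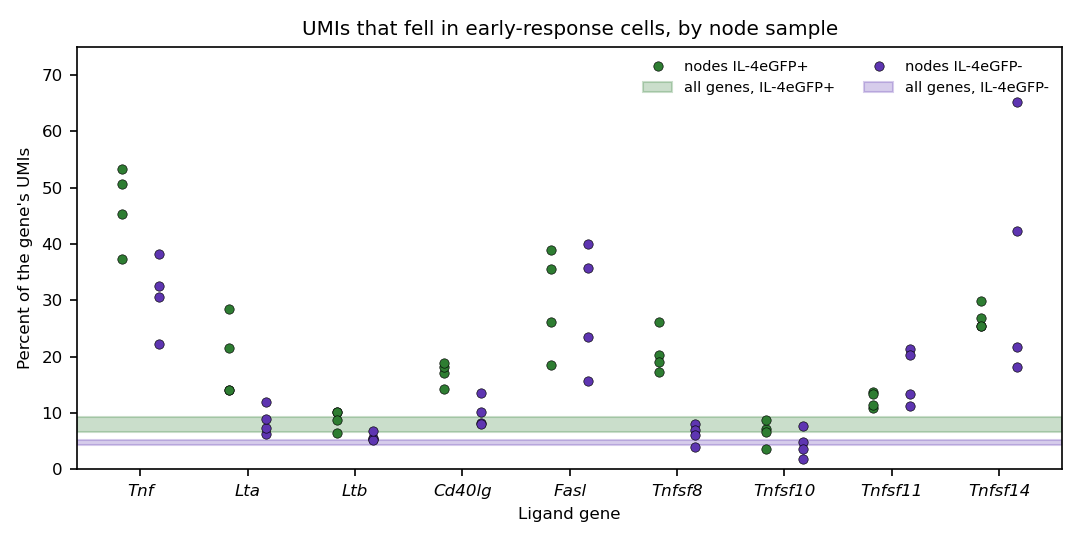
Percent of each gene's UMIs that fell in early-response cells, 1 point per node sample; bands give the range of the same percent for all genes together. Tnf points lie at 37.4 to 53.3% in IL-4eGFP+ samples, far above the band at 6.64 to 9.34%, and Ltb points lie at or near the bands.

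In the first run the size of the change with the gate differed between the organs for some members. Tnf, Cd40lg, Tnfsf8 and Tnfsf11 were higher in early-response cells of both mice in both organs. In MLN, early-response cells held 89.6 and 169 CPM of Tnf against 16.0 and 16.1 CPM in other cells. In lung they held 20 and 27.4 CPM against 16.0 and 9.98 CPM. The MLN rise was present in both mice, and 1 cell of MLN 2 alone held 26 Tnf UMIs. The interaction of gate and organ, also chosen after the values were seen, was called for 4 of 9 members and 0.905% of genes, each smaller in lung. It was -2.14 ± 0.38 for Tnf (edgeR adjusted p = 0.00548), with -1.35 (adjusted p = 0.374) without the first lung library.

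Fasl showed the same pattern, with 37.4 and 30.2 against 7.94 and 7.28 CPM in MLN and 53.8 and 56.8 against 43.4 and 73.7 CPM in lung (interaction -2.12 ± 0.31, edgeR adjusted p = 7.8e-04). Tnfsf14 had 85.7 and 78.5 against 31.7 and 31.9 CPM in MLN and 16.3 and 19.4 against 17.2 and 23.0 CPM in lung (-1.50 ± 0.27, adjusted p = 0.00627). In lung, early-response cells were thus below other cells in both mice for Tnfsf14. Cd40lg was higher in early-response cells in both organs, with 484 and 487 against 210 and 259 CPM in MLN and 650 and 709 against 442 and 520 CPM in lung (-0.55 ± 0.12, adjusted p = 0.0266). Without the first MLN library, 3 of these calls were lost (Fasl -2.0, Tnfsf14 -1.43, Cd40lg -0.40), and the Cd40lg call was also lost without the second lung library (-0.49). With DESeq2 the Tnfsf14 (-1.52) and Cd40lg (-0.56) calls were lost. In thinned cells those of Tnf (-2.19), Tnfsf14 (-1.39) and Cd40lg (-0.55) were lost. Tnfsf8 did not pass (-0.64, adjusted p = 0.131), but did without the first lung library (-1.03, adjusted p = 6.5e-04), with no filter on low counts (-0.59), in thinned cells (-0.87) and with at least 3 early-response genes (-1.27). Preparation and organ cannot be told apart in this contrast.

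Over lung and MLN together Tnf (2.21 ± 0.33), Cd40lg (0.81 ± 0.10), Tnfsf8 (0.82 ± 0.13) and Tnfsf11 (0.46 ± 0.09) passed (edgeR adjusted p = 0.00361, 3.9e-04, 0.00476 and 0.0232). The Tnf call was lost without the first MLN library (2.00), and that of Tnfsf11 without the first lung library (0.42) or the second MLN library (0.37). The Tnf call was also lost with DESeq2 (1.98), and that of Tnfsf8 in thinned cells (0.62) and with cells without a TCR kept (0.72). Fasl (0.73 ± 0.31) passed without the second lung library (1.22), and Tnfsf14 (0.86 ± 0.24) without the first (1.10) or the second (1.03). Without the sample as a block no member passed here.

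Node cells were next divided by T helper programme. In the IL-4eGFP+ sort, a follicular helper gate took cells with UMIs of Cxcr5 and of Bcl6 or Il21 (138 to 213 cells per sample), and an effector gate took cells with UMIs of Il1rl1, Il5 or Il13 (83 to 171 cells). Each was compared with all other cells of its sample. The remaining cells of both gates were largely the same cells. In the follicular helper gate 5 of 9 members rose and 2 fell (17.3% of genes called). In the effector gate 2 rose and 6 fell (33.8% of genes called).

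Tnfsf8, the ligand of CD30, stood at 279, 220, 159 and 199 CPM in follicular helper-gate cells of medLN 1 and 2 and MLN 1 and 2 against 98.1, 105, 81.7 and 93.5 CPM in other cells (1.14 ± 0.08, edgeR adjusted p = 8.1e-14). Tnf stood at 68.7, 54.2, 37.7 and 30.4 against 20.3, 23.8, 18.5 and 15.1 CPM (1.23 ± 0.15, adjusted p = 1.9e-08). Tnfsf14 stood at 44.8, 46.0, 49.3 and 54.4 against 18.1, 19.7, 21.7 and 21.0 CPM (1.26 ± 0.13, adjusted p = 1.2e-09). Gated cells lay above the others in all 4 samples for these genes, with no overlap. Tnfsf11 (0.74 ± 0.09, adjusted p = 2.0e-08) and Lta (1.00 ± 0.19, adjusted p = 8.1e-05) rose as well. Cd40lg, in contrast, stood at 117, 108, 145 and 117 CPM against 112, 119, 127 and 120 CPM, and its difference was 0.00 ± 0.07, with 1.96 SE spanning -0.14 to 0.15.

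Fasl fell in the follicular helper gate (-1.39 ± 0.40, edgeR adjusted p = 0.0117) from 6.24 to 8.31 CPM to 1.60 to 5.98 CPM. The call was lost without medLN 2 (-1.30) or MLN 2 (-1.05) and with DESeq2 (-1.37, adjusted p = 0.136). Whole IL-4eGFP+ samples held only 54 to 80 Fasl UMIs, so the gated Fasl levels rest on few UMIs. Tnfsf10 fell by a smaller amount (-0.65 ± 0.22, adjusted p = 0.0354). It was higher in gated cells of medLN 1 (28.4 against 20.3 CPM) and lower in the other samples (9.21 to 11.6 against 19.0 to 24.3 CPM). Its call was lost in 8 of 13 alternatives. Among these were DESeq2 (-0.63), thinned cells (-0.38) and leaving out medLN 2 (-0.52), MLN 1 (-0.63) or MLN 2 (-0.42). Ltb did not pass (-0.09 ± 0.04), but did without MLN 1 (-0.16, adjusted p = 0.0332), with no filter on low counts (-0.13, adjusted p = 0.0276), in thinned cells (-0.31, adjusted p = 1.3e-06) and without cells that carried other-cell markers (-0.34, adjusted p = 4.0e-06). Early-response cells were 9.39 to 10.9% of the gated cells.

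In effector-gate cells both lymphotoxin genes fell. Ltb stood at 276, 283, 218 and 210 CPM against 736, 738, 846 and 717 CPM in other cells (-1.57 ± 0.08, edgeR adjusted p = 1.5e-10). Lta had 5.24, 4.22, 1.65 and 4.99 CPM against 15.7, 17.3, 12.3 and 15.5 CPM (-1.79 ± 0.26, adjusted p = 4.5e-05). Neither gene overlapped between gated and other cells. Whole IL-4eGFP+ samples held only 107 to 149 Lta UMIs, so the gated Lta levels rest on few UMIs. Tnf had 18.4, 3.38, 3.30 and 1.25 CPM against 24.4, 30.3, 21.9 and 19.7 CPM (-1.87 ± 0.36, adjusted p = 5.9e-04), with medLN 1 closest to its other cells. Without cells that carried markers of other cell types the Tnf value was -0.78 and did not pass (adjusted p = 0.2). Gated Tnf levels outside medLN 1 also rest on few UMIs.

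Tnfsf10 was the member that rose most in effector-gate cells, with 40.2, 49.8, 44.6 and 59.2 CPM against 18.2, 14.9, 16.3 and 16.2 CPM (1.62 ± 0.15, edgeR adjusted p = 2.0e-07) and no overlap. Fasl also rose (0.94 ± 0.29, adjusted p = 0.0202), at 15.7, 8.44, 19.8 and 8.11 CPM against 6.93, 5.90, 4.88 and 7.42 CPM, and lost its call without medLN 1 (0.82), without MLN 1 (0.66) and without early-response cells (0.79, adjusted p = 0.0668). Both are death ligands, and both were also higher in lung, where 76.2% and 61.1% of cells fell in the effector gate. In MLN of the first run that gate held 4.18% and 5.70% of cells. The part of these shares in the organ differences was not tested.

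Tnfsf11 (-0.64 ± 0.12, edgeR adjusted p = 5.4e-04), Tnfsf8 (-0.65 ± 0.18, adjusted p = 0.00954) and Tnfsf14 (-0.77 ± 0.28, adjusted p = 0.0415) were lower in effector-gate cells of the nodes. Tnfsf8 and Tnfsf11 were higher in lung than in MLN, so the node programme and the lung had opposite signs for these genes. The Tnfsf8 call was lost without MLN 2 (-0.34), with DESeq2 (-0.69) and with no replicate block (-0.60). The Tnfsf14 call was lost in 8 of 13 alternatives. Among these were DESeq2 (-0.82), thinned cells (-0.33) and leaving out medLN 2 (-0.88), MLN 1 (-0.71) or MLN 2 (-0.29). Tnfsf14 stood at -0.09 without cells that carried other-cell markers. Cd40lg gave -0.15 ± 0.10 and did not pass (adjusted p = 0.278).

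In the IL-4eGFP- sort, cells with a Foxp3 UMI (189 to 257 per sample), a gate for regulatory T cells, were compared with the other cells. In this gate 5 of 9 members rose and 2 fell (25.3% of genes called). Cd40lg was 4.76-fold lower, at 10.6, 12.5, 22.1 and 16.0 CPM against 59.3, 60.5, 72.6 and 61.9 CPM (-2.25 ± 0.16, edgeR adjusted p = 3.8e-08). Tnfsf11 rose most, at 36.1, 49.2, 34 and 30.8 CPM against 7.21, 8.60, 8.25 and 6.22 CPM (2.15 ± 0.18, adjusted p = 2.2e-07). Foxp3+ and other cells did not overlap for either gene.

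Ltb stood at 1290, 1243, 1314 and 1292 CPM in Foxp3+ cells against 888, 814, 839 and 799 CPM (0.46 ± 0.06, edgeR adjusted p = 1.6e-05), its highest level in any gate tested in the nodes. Tnf had 32.0 to 51.1 CPM against 13.4 to 20.4 CPM (1.01 ± 0.15, adjusted p = 7.7e-05) and Lta 29.5 to 54.6 against 12 to 20.8 CPM (1.02 ± 0.16, adjusted p = 1.1e-04). The 3 neighbouring genes of chromosome 17 thus all rose in Foxp3+ cells and did not overlap with other cells. Tnfsf8 fell (-0.85 ± 0.20, adjusted p = 0.00379), except in MLN 1, where Foxp3+ cells had 63.5 CPM and other cells 54.8 CPM. Tnfsf10 (0.58 ± 0.18, adjusted p = 0.028) lost its call in 6 of 13 alternatives. Among these were DESeq2 (0.59), thinned cells (0.35) and leaving out medLN 1 (0.56), medLN 2 (0.58) or MLN 1 (0.57). Fasl (-1.25 ± 0.45, adjusted p = 0.0541; -1.21, adjusted p = 0.0382, with no replicate block) and Tnfsf14 (0.61 ± 0.47, adjusted p = 0.386) did not pass.

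**Figure D5:**
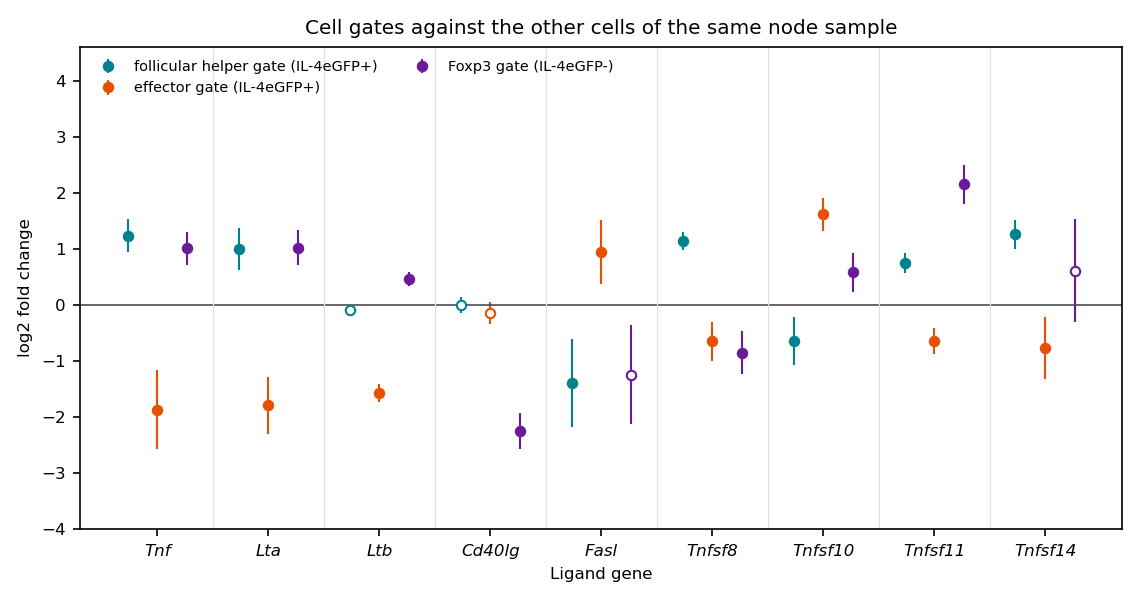
Log2 fold change of each ligand gene in 3 cell gates against the other cells of the same node sample. Lines span 1.96 SE either way, and filled points passed an adjusted p of 0.05. Follicular helper-gate and effector-gate cells point in opposite directions for Tnf, Lta, Fasl, Tnfsf8, Tnfsf10, Tnfsf11 and Tnfsf14. The Foxp3 gate has the lowest fold change for Cd40lg and the highest for Tnfsf11. Its fold changes are against other IL-4eGFP- cells and those of the other gates against IL-4eGFP+ cells, so they do not rank levels.

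Within the lung, cells with a UMI of Il5 or Il13 (351 and 88 cells) were compared with the remaining cells. Here 3 of 9 members rose and 1 fell (9.61% of genes called). Tnfsf8 stood at 288 and 308 CPM against 172 and 130 CPM (0.90 ± 0.09, edgeR adjusted p = 1.5e-19). Tnfsf11 stood at 259 and 327 against 180 and 203 CPM (0.57 ± 0.09, adjusted p = 3.8e-08) and Tnfsf10 at 36.1 and 55.1 against 24.8 and 27.3 CPM (0.68 ± 0.18, adjusted p = 0.0034). Cytokine-positive cells were higher in both lungs for these 3 genes. Fasl fell from 55.0 and 70.8 CPM to 42.8 and 46.7 CPM (-0.44 ± 0.14, edgeR adjusted p = 0.0265). In the effector gate of the nodes Fasl (0.94), Tnfsf8 (-0.65) and Tnfsf11 (-0.64) had the opposite sign to that in this lung gate. Tnfsf10 (1.62) had the same sign in both. The gates are unlike, since the node gate also took cells with Il1rl1 UMIs and none of Il5 or Il13. In lung such cells were among the remaining cells, so these signs do not compare the organs for the same cells. With 2 mice, and 4 sums for 3 fitted terms, the count of members called in the lung gate moved with the settings more than the other counts. It ran from 0 to 7 members. The calls of Fasl and Tnfsf10 were lost with DESeq2 (-0.48 and 0.75), in thinned cells (-0.53 and 0.31) and without early-response cells (-0.45 and 0.56). That of Tnfsf11 was also lost with DESeq2 (0.58, adjusted p = 0.105), and with no replicate block all 4 were lost, Tnfsf8 at 0.93 (adjusted p = 0.0952) and Tnfsf11 at 0.58 (adjusted p = 0.17).

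Receptors of these ligands and the other ligands of the superfamily were followed as fixed lists. Of 10 receptors 7 passed the filter on low counts in the lung comparison, where 31.0% of all genes were called. Higher in lung were 3 of them, Tnfrsf11a (RANK, 3.40 ± 0.52), Tnfrsf10b (the TRAIL receptor, 2.82 ± 0.28) and Tnfrsf1b (TNF receptor 2, 2.11 ± 0.16). Lower in lung were another 3, Tnfrsf1a (TNF receptor 1, -2.13 ± 0.32), Tnfrsf14 (-1.88 ± 0.26) and Fas (-0.50 ± 0.15). Between the sorts, 3 of 7 receptors were higher in IL-4eGFP+ cells, including Tnfrsf11a (2.59 ± 0.62) and Tnfrsf8 (the CD30 receptor, 2.23 ± 0.30). Another 2 were lower, including Tnfrsf1a (-1.45 ± 0.09). These 5 of 7 called lay near the 62.1% of all genes called. In Foxp3+ cells 3 of 6 receptors rose and 1 fell (25.3% of all genes called), with Tnfrsf8 at 3.94 ± 0.59 and Tnfrsf1b at 2.56 ± 0.12. Tnfrsf8 thus rose in the gate in which its ligand gene Tnfsf8 fell. The effector gate had the same signs (Tnfrsf8 1.26 ± 0.27, Tnfsf8 -0.65 ± 0.18), though its Tnfsf8 call was lost in 3 of 13 alternatives.

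In the effector gate 3 of 7 receptors rose (Tnfrsf11a 2.06 ± 0.56, Tnfrsf8 1.26 ± 0.27, Tnfrsf1b 0.99 ± 0.14), with 33.8% of all genes called. Another 3 fell there (Tnfrsf1a -2.81 ± 0.38, Tnfrsf14 -2.43 ± 0.26, Fas -2.26 ± 0.23). In the follicular helper gate, with 17.3% of all genes called, 3 of 6 rose and 1 fell (Tnfrsf1b -1.77 ± 0.22, Tnfrsf14 0.82 ± 0.17, Fas 0.81 ± 0.15). The receptor of Fasl thus had the opposite sign to its ligand in both gates. The Fasl call itself was lost in 3 of 13 alternatives in each gate. Gated Fasl levels also rest on few UMIs, since whole IL-4eGFP+ samples held 54 to 80. In early-response cells 1 of 6 receptors rose in each node sort, Tnfrsf1b at 0.57 ± 0.17 and 1.72 ± 0.18, and none of 6 passed in lung and MLN. Of all genes 8.21%, 11.4% and 1.15% were called in these comparisons. No receptor passed between medLN and MLN (1.38% of all genes called in IL-4eGFP+ and 0.0434% in IL-4eGFP- cells). None of the 6 tested passed in lung cytokine-positive cells (9.61% of all genes called).

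Of the 9 other ligands of the superfamily Tnfsf9 (4-1BB ligand) passed the filter on low counts in all these comparisons. Tnfsf13b (BAFF) passed it in most. It was not tested in early-response cells of IL-4eGFP- nodes, in the Foxp3 gate or in the lung cytokine gate. Tnfsf4 passed the filter in the interaction of gate and sort alone. In lung Tnfsf9 was higher (1.54 ± 0.25) and Tnfsf13b lower (-1.08 ± 0.33) than in MLN. Both were higher in IL-4eGFP+ cells, Tnfsf13b at 3.46 ± 0.30 and Tnfsf9 at 0.68 ± 0.28 (edgeR adjusted p = 0.0496). The 6 myeloid markers summed to 194 to 239 CPM in IL-4eGFP+ node samples and 131 to 181 CPM in IL-4eGFP- samples. The part of other cell types in these 2 values was not tested, and the alternatives were run for the members only. Tnfsf9 rose with the early-response gate in the nodes, by 2.16 ± 0.24 and 1.75 ± 0.48, as Tnf did.

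At least 4 members were detected in 35.6% of lung and 24.6% of MLN cells of the first run, in 10.4% and 10.9% of IL-4eGFP+ cells of medLN and MLN, and in 2.25% and 1.65% of IL-4eGFP- cells. Most IL-4eGFP- cells, 52.2% and 53.8%, held 1 member, and cell depth differs between the runs. Tnf and Lta were found together in 63 of 3216 MLN cells, where independence would give 30.8, and in 26 to 34 cells against 13.1 to 17.0 in the IL-4eGFP+ nodes. Lta was thus detected in 19.4% of Tnf-positive and 8.40% of other MLN cells. Tnfsf11-positive cells held Tnfsf14 in 13.1% and 10.2% of cases in IL-4eGFP+ MLN and medLN, against 8.50% and 6.69% of other cells. Cells also differed in depth, whose part in such pairs was not tested.

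The 1% of cells with most Tnf held 31.6 to 43.1% of its UMIs in IL-4eGFP+ node samples. This share was 29.5 to 45.3% for Lta and 52.6 to 61.0% for Fasl, which also had few UMIs, and 4.98 to 6.86% for the abundant Ltb.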

How the data were processed

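Single T cells were profiled with a droplet assay that counts UMIs at the 5′ ends of transcripts. The authors aligned reads to mm10 (GRCm38) and counted UMIs with Cell Ranger. Versions 2.1.1, 3.0.1 and 6.1.2 are named in the submitters' processing notes. The deposited matrices hold UMI counts per gene and barcode. For the node run the paper names an aggregation step with version 6.1.2. Whether that step equalised depth between the libraries is not known here. The 9 members and all gene lists and gates were chosen with earlier results of these data known.

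Cells were kept, after the study's methods, where mitochondrial genes held less than 7% of the UMIs, the novelty score passed 0.8, and both the UMI total and the number of genes detected exceeded 500. Lung and MLN cells also needed productive TCR alpha and beta chains. Hashtags were called with HTODemux of Seurat 5.3.0 (quantile 0.99), which set aside 1256 and 1280 doublets in the IL-4eGFP+ and IL-4eGFP- libraries. In the first run 286 of 4714 cells had surplus TCR contigs and were left out only as an alternative. Cells carrying other-cell markers had 2 or more UMIs over lists of B-cell, myeloid, epithelial, exocrine pancreas and red-cell genes. They were 908 of 4714 cells of the first run and 2108 of 16748 node cells, also left out only as an alternative. The rule used a fixed count at any cell depth, and the myeloid list included Cst3. How many of these cells were T cells was not tested. Up to 10 barcodes were shared between libraries of the first run and 155 between the node libraries. Gates were set on UMIs of named genes, as given in the text. For shares at equal depth, cells were thinned to 2000 UMIs, which left out 84 cells of the first run and 1713 of the second.

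UMI counts were summed per sample, or per sample and gate, and tested with edgeR 4.0.16 (quasi-likelihood, TMM, filterByExpr) in R 4.3.3, after TCR genes were left out. P-values were adjusted by the Benjamini-Hochberg method over all genes tested. Errors of fold changes are standard errors from this fit. Fold changes carry the TMM scaling and CPM do not, so ratios of the printed CPM can differ from them. Comparisons within samples used the sample as a block, and comparisons between samples had no block. In the node fits medLN and MLN of the same mouse counted as separate samples, so the 4 samples of a sort came from 2 mice. DESeq2 1.42.0 (Wald test), its size factors, no filter on low counts, thinned cells, other cell filters and leaving out each sample were the alternatives. The fits were tested on simulated counts first.

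Samples of the same number came from the same mouse. Their deviations correlated at 0.0377 between lung and MLN, at 0.235 and 0.117 between medLN and MLN of the IL-4eGFP+ and IL-4eGFP- sorts, and at 0.166 and 0.159 between the sorts in medLN and MLN. The named genes were the 9 members in every comparison and, of the lists of receptors, other ligands and dissociation genes, at most 3 called genes per list and comparison with the largest change. All called receptors were named for lung against MLN and for the effector gate.

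Gene positions are from GENCODE vM21 and promoter windows from RefSeq on GRCm38.p6, which held 8 of the 9 members.

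A gate for naive cells, and results that rest on it, are not reported here.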

Additional observations from a re-analysis of the deposited data

Results flagged for a closer look

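Ligand responses to the early-response gate differed between groups for 7 interaction terms, each past an edgeR adjusted p of 0.05. Of all genes, 0.905% were called for the interaction with organ and 2.79% for that with the sort. All of these member terms except Tnfsf8 with the sort lost the call in some alternatives. Between lung and MLN the log2 change with the gate was smaller in lung by -2.14 for Tnf, -2.12 for Fasl, -1.50 for Tnfsf14 and -0.55 for Cd40lg. The early-response cells were 66.0% and 48.3% of lung cells against 7.47% and 10.3% of MLN cells, and the part of lung digestion in these terms was not tested. Between the sorts the change with the gate was larger in IL-4eGFP+ cells by 1.26 for Tnfsf8, and smaller by -1.13 for Tnfsf11 and -1.46 for Tnfsf14. For Tnfsf14 the IL-4eGFP- side rested on 2, 7, 6 and 2 positive early-response cells in the 4 samples. Both interactions were chosen after the values were seen.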

How the results depend on the processing

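Between IL-4eGFP+ and IL-4eGFP- cells, Tnf turned from -0.01 to 0.33 in thinned cells and to 0.29 without cells carrying other-cell markers, and the cause was not tested. Members called for the early-response gate in lung and MLN went from 4 to 0 with no replicate block and to 1 with at least 3 gate genes. In the lung cytokine gate they went from 4 to 1 with DESeq2, 0 with no replicate block, 2 in thinned cells, 7 with cells without a TCR kept and 2 without early-response cells. For the interaction of early-response gate and organ they went from 4 to 2 with DESeq2, 1 with no replicate block, 2 in thinned cells and 1 to 4 with 1 sample left out. For the interaction with the sort they went from 3 to 1 with no replicate block, 1 with at least 3 gate genes and 1 to 3 with 1 sample left out. The mouse as a replicate block raised the members called between lung and MLN from 7 to 8, and left medLN and MLN at 0. Elsewhere members called kept within 6 to 8 for lung and MLN, 6 to 7 between the sorts, 7 for the early-response gate in IL-4eGFP+ nodes and 5 to 6 in IL-4eGFP- nodes, 5 to 8 for the follicular helper gate and 6 to 8 for the effector and Foxp3 gates.

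Counts over all genes moved more. Against 3284 between lung and MLN the alternatives gave 1833 to 3911, against 159 and 5 between medLN and MLN 47 to 331 and 2 to 67, and against 18 for their interaction with the sort 4 to 68. For the early-response gate they gave 0 to 225 against 109, 476 to 993 against 886 and 687 to 1196 against 1159. For the follicular helper, effector, Foxp3 and cytokine gates they gave 872 to 1894 against 1863, 1323 to 3833 against 3653, 1763 to 2876 against 2655 and 42 to 1022 against 894. The added interactions ranged over 8 to 148 against 86 for organ and 127 to 363 against 317 for the sort.

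With 1 sample left out, 607 member values kept their side of the threshold, 33 lost a call and 8 gained one. Under the other settings 1006 kept it, 66 lost a call and 17 gained one. DESeq2 or a filter gave no adjusted p for 7 values. Leaving out a lung in the cytokine gate left no spread to estimate and was not run. Levels under 10 CPM, as for Fasl in the nodes, rest on at most 80 UMIs per sample, and small differences were not detectable there.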

Other observations

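Cells with the invariant TCR alpha rearrangement of natural killer T cells, which the IL-4eGFP reporter also marks, were 45 and 20 of the MLN cells of the first run. Levels of 4 members in these cells are given here, and the other members are not described. Fasl stood at 101 and 151 CPM in them against 8.91 and 6.84 CPM in the other MLN cells. Ltb stood at 1144 and 1817 against 847 and 895 CPM, and Tnfsf14 at 62.4 and 97.3 against 36.1 and 35.8 CPM. Tnfsf8, in contrast, had 2 UMIs (7.81 CPM) in the first mouse and none in the second, against 93.5 and 106 CPM in other cells. Both mice gave the same order for these 4 genes, from few cells and with no test. Lung samples held only 3 and 8 such cells.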
